A study of Homo sapiens with 12 samples.

Results

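The genes of 10 enzymes and helpers that modify collagen were followed here: the lysyl oxidases LOX, LOXL1 and LOXL2, the lysyl hydroxylases PLOD1, PLOD2 and PLOD3, the prolyl 4-hydroxylase subunits P4HA1, P4HA2 and P4HB, and the collagen chaperone SERPINH1. They were matched by Ensembl identifier to GENCODE release 29 symbols, and each of the 10 had a row in the deposited table of 25141 genes. All 10 passed the filter on low counts, which left 12542 genes for testing. The cells were HOS, a human osteosarcoma line, sequenced as 4 groups of 3 libraries. Mock cells carried the empty vector, and upCIN85 cells were a geneticin-resistant pool, not a single clone, carrying the pRc/CMV2-Rukl plasmid for full-length CIN85, an adaptor protein encoded by SH3KBP1. Both had been selected with geneticin. The siNeg cells received a non-targeting siRNA, and in siCIN85 cells CIN85 was silenced with 3 pooled siRNAs. The methods speak of biological replicates in general, but neither they nor the labels state whether these libraries came from separate cultures, so P-values measure the spread between these libraries only.

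Collagen chains are modified in the endoplasmic reticulum before they leave the cell. Prolyl 4-hydroxylase, a complex of an alpha subunit (P4HA1 or P4HA2) with the beta subunit P4HB, hydroxylates prolines and so makes the triple helix stable at body temperature. Lysyl hydroxylases hydroxylate lysines that later serve in crosslinks or carry sugars, and PLOD2 acts on the telopeptides at the chain ends. SERPINH1, also known as HSP47, binds the folded triple helix on its way to the Golgi. Outside the cell, the lysyl oxidases oxidize lysine side chains, which starts the covalent crosslinks of collagen and elastin. In tumors these enzymes are known for stiffening the matrix, and LOX, PLOD2 and P4HA1 are textbook targets of the hypoxia-inducible factors.

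Because several members are known hypoxia targets, the 250 bases before the RefSeq gene start (GRCh38.p14) were searched on both strands for the hypoxia-response core, ACGTG or GCGTG. RefSeq windows were at hand for 9 members, all but LOXL2. The core was found in the windows of 5 members, namely LOX, PLOD1, PLOD2, P4HA1 and P4HB, and in 43.1% of all 27305 windows searched. Many windows reach into annotated exons. All 250 bases did for LOXL1, PLOD3 and P4HA2, and 197 for SERPINH1. The matches of P4HA1 and P4HB also lie in exons. LOX held 4 matches and PLOD2 held 3, the most among the members, and their windows are shown for that reason, with the matches on either strand in capitals. For LOX the stretch outside annotated exons is given (chr5:122078361-122078509, minus strand), which holds 2 of the 4 matches, and for PLOD2 the whole window, which lies inside the longer GENCODE gene span but in no exon (chr3:146161185-146161434, minus strand).
LOX: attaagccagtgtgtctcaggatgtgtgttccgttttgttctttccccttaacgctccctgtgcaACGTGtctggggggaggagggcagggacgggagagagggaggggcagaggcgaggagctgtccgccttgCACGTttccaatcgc
PLOD2: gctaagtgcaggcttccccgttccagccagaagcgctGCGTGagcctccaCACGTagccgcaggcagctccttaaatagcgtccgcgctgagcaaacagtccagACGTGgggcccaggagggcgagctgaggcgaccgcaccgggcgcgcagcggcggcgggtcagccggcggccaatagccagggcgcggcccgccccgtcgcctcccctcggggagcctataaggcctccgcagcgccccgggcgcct
Of the other motifs searched, TATAAA was found for P4HA1 and P4HB (11.1% of all windows), the ETS letters CCGGAAG for SERPINH1 (8.82%) and the AP-1 letters TGANTCA for none of the 9 members (6.60%). The TATAAA and ETS matches of these members lie in annotated exons. All matches given here are letters in a window and say nothing of factor binding in these cells.

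The libraries held between 3540641 and 6049458 counts in genes, with 5334731 or more in each Mock and upCIN85 library and 4174860 or fewer in each siNeg and siCIN85 library. Single counts for the members ran from 73, for PLOD1 in a siCIN85 library, to 2620, for LOXL1 in an upCIN85 library, so counting error alone gave a coefficient of variation of 11.7% to 1.95%. SH3KBP1 was lower in siCIN85 than in siNeg cells by a log2 fold change of -3.51 (SE 0.21, adjusted P = 5.09e-08). It was not higher in the libraries labelled upCIN85 (log2 fold change 0.07, SE 0.16, adjusted P = 0.887). The kit reads transcript ends and the end of the plasmid transcript is not stated, so this value does not check the overexpression. The study measured CIN85 protein in its HOS sublines by western blot, and describes the full-length form as overexpressed in upCIN85 cells. Summed leukocyte markers stayed between 0.680 and 2.31 CPM (counts scaled to a common library total), and summed mesenchymal and osteoblast-type markers lay between 1189 and 2567 CPM. Summed epithelial markers lay between 315 and 416 CPM and endothelial ones between 0.578 and 6.80 CPM.

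Levels are given as CPM after TMM scaling, which corrects for differences in library composition. CPM from a kit that reads transcript ends are not divided by gene length, and levels are compared between groups for each gene, not between genes. The plot of CPM by library shows the 10 genes in the 4 groups.

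**Figure D1:**
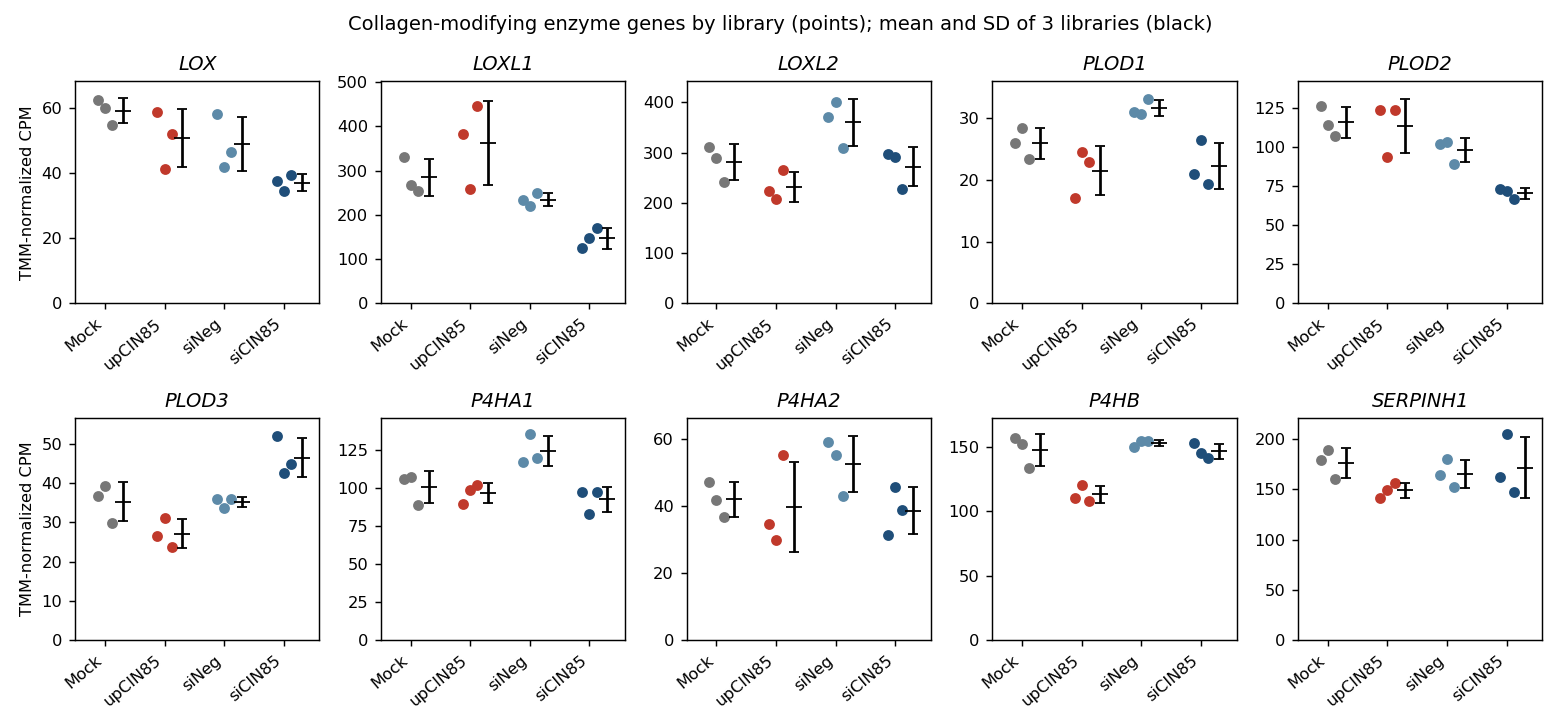
TMM-normalized CPM (vertical axes, each starting at 0) of the 10 genes in Mock, upCIN85, siNeg and siCIN85 cells. Colored points are single libraries and black marks are the mean and SD of 3 libraries. LOXL1 and PLOD2 were lowest in the siCIN85 libraries, P4HB lay at 108 to 121 CPM in upCIN85 against 134 to 157 CPM in Mock, and PLOD3 was highest in siCIN85.

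Among the lysyl oxidases, LOXL1 is described first. It crosslinks elastin and collagen, and the gene lies on chr15:73925989-73952137 (ENSG00000129038). It measured 332, 269 and 255 CPM in the Mock libraries and 383, 258 and 445 CPM in the upCIN85 libraries. The siNeg libraries had 233, 220 and 250 CPM, and the siCIN85 libraries had 124, 147 and 171 CPM. The siCIN85 libraries lay below every siNeg library, whereas the upCIN85 libraries overlapped with Mock, since replicate 2 lay between Mock replicates 3 and 2. The difference siCIN85 minus siNeg was -0.67 (log2 scale, SE 0.17), a level 37.0% lower, with an adjusted P of 0.0640. When replicate number was blocked for the knockdown, where same-numbered libraries were taken as pairs, it was -0.68 (SE 0.16) and passed the test with an adjusted P of 0.0255. The difference upCIN85 minus Mock was 0.35 (SE 0.16, adjusted P = 0.336).

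LOX, which founds the family, had mean levels of 59.1 ± 3.87 CPM for Mock and 50.8 ± 8.87 CPM for upCIN85. For siNeg the mean was 49.0 ± 8.35 CPM and for siCIN85 37.1 ± 2.50 CPM (SD, n = 3 each). The siCIN85 libraries (34.4 to 39.3 CPM) lay below the siNeg libraries (42.0 to 58.2 CPM), and the difference of -0.40 (SE 0.16) did not pass the test (adjusted P = 0.223). LOXL2, a family member also known to act in the nucleus, measured 227 to 298 CPM in siCIN85 and 309 to 401 CPM in siNeg (-0.40, SE 0.13, adjusted P = 0.149). In upCIN85 the differences from Mock were -0.22 (SE 0.15) for LOX and -0.28 (SE 0.13) for LOXL2, with adjusted P of 0.522 and 0.352. LOX and LOXL2 were therefore below their controls in both experiments by values that did not pass, and LOXL1 was the only member above its control in the upCIN85 libraries.

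PLOD2, the telopeptide lysyl hydroxylase (chr3:146069440-146163653, ENSG00000152952), measured 126, 114 and 107 CPM in Mock and 124, 93.8 and 124 CPM in upCIN85. In siNeg it measured 102, 103 and 89.1 CPM, and in siCIN85 73.0, 72.0 and 66.5 CPM. The siCIN85 libraries were the lowest of the 12 and did not overlap with siNeg, whereas upCIN85 and Mock overlapped. The difference in the knockdown was -0.47 (SE 0.13, 28.0% lower) with an adjusted P of 0.0749, and 0.0423 with the replicate block. In upCIN85 the difference was -0.03, with a 95% interval of -0.28 to 0.23 (adjusted P = 0.946).

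PLOD3, which also transfers sugars to hydroxylysine, went the other way in the knockdown. It measured 36.0, 33.7 and 35.9 CPM in siNeg and 51.9, 42.5 and 44.9 CPM in siCIN85, with every siCIN85 library above every siNeg library (0.40, SE 0.15, adjusted P = 0.188). In Mock it measured 36.7, 39.2 and 29.8 CPM and in upCIN85 26.4, 31.0 and 23.8 CPM, with 1 pair of libraries overlapping (-0.38, SE 0.14, adjusted P = 0.216). PLOD1, the hydroxylase of lysines in the helix, measured 19.3 to 26.3 CPM in siCIN85 and 30.5 to 33.1 CPM in siNeg (-0.51, SE 0.17, adjusted P = 0.147). It was the member with the fewest counts, and its upCIN85 difference was -0.27 (SE 0.16, adjusted P = 0.468). By edgeR without the block 0 of the 3 lysyl hydroxylases passed in either comparison, and DESeq2 called PLOD2 in the knockdown (adjusted P = 0.0317).

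Among the prolyl 4-hydroxylase subunits, the alpha subunit P4HA1 and the beta subunit P4HB had their lowest P-values in different experiments. P4HA1 (chr10:73007217-73096974, ENSG00000122884) measured 117, 135 and 120 CPM in siNeg and 97.6, 83.3 and 97.2 CPM in siCIN85. These groups did not overlap, and the difference of -0.42 (SE 0.11, 25.4% lower) had an adjusted P of 0.0833, and of 0.0559 with the replicate block. In Mock it measured 106, 107 and 88.6 CPM and in upCIN85 89.5, 99.0 and 102 CPM, which overlapped (-0.06, SE 0.11, adjusted P = 0.869). P4HA2, the other alpha subunit, overlapped in both comparisons, at 29.9 to 55.2 CPM in upCIN85 against 36.8 to 47.4 CPM in Mock, and at 31.5 to 45.7 CPM in siCIN85 against 43.2 to 59.2 CPM in siNeg. Its differences were -0.07 (SE 0.20, adjusted P = 0.906) and -0.45 (SE 0.21, adjusted P = 0.307).

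P4HB, which is also the protein disulfide isomerase of the endoplasmic reticulum, lies on chr17:81843159-81860694 (ENSG00000185624). It measured 157, 152 and 134 CPM in the Mock libraries and 110, 121 and 108 CPM in those labelled upCIN85. Each of the latter was below each Mock library, with a difference of -0.38 (SE 0.095, 23.4% lower) and an adjusted P of 0.0555. The same difference had an adjusted P of 0.0320 in the fit with the knockdown block, and of 0.0163 in DESeq2. That block holds no term for the Mock and upCIN85 libraries, so here it changes only the spread estimate shared by all libraries. In siNeg and siCIN85 P4HB measured 150, 154 and 154 CPM and 153, 145 and 141 CPM. There the difference was -0.06, with a 95% interval of -0.27 to 0.14 (adjusted P = 0.798). The chaperone SERPINH1 measured 141 to 156 CPM in upCIN85 and 160 to 189 CPM in Mock, without overlap (-0.24, SE 0.12, adjusted P = 0.359). In siCIN85 it spanned 147 to 205 CPM, around the siNeg range of 152 to 180 CPM (0.05, SE 0.12, adjusted P = 0.879).

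Taking the 10 genes as a group, 0 passed an adjusted P of 0.05 in upCIN85 minus Mock by edgeR, where 1.23% of all tested genes did. At an unadjusted P below 0.05 there were 3 members, LOXL1, PLOD3 and P4HB, against 14.5% of all genes, and P4HB was called by DESeq2 (2.54% of all genes) and in the fit with the knockdown block (4.35%). Of the 10 differences 9 were below 0, as were 48.9% of all genes, and 2 members, P4HB and SERPINH1, had every upCIN85 library below every Mock library, as had 11.0% of all genes. The members' median was -0.23 and that of all genes 0.01. In siCIN85 minus siNeg 0 members passed by edgeR, against 1.04% of all genes. DESeq2 called LOXL1, PLOD2 and P4HA1, against 2.87% of the 10351 genes to which it gave an adjusted P. At an unadjusted P below 0.05, 7 members were lower, against 8.15% of all genes, and PLOD3 was higher, against 7.55%. Among the lower members, LOXL2, PLOD1, P4HA1 and P4HA2 had their highest group mean in the siNeg control. For LOX, LOXL1 and PLOD2 the siNeg mean lay below the Mock mean. Of the 10 differences 8 were below 0, as were 50.8% of all genes. For 6 members, LOX, LOXL1, LOXL2, PLOD1, PLOD2 and P4HA1, every siCIN85 library lay below every siNeg library, as it did for 10.2% of all genes, and for PLOD3 every library lay above (9.91%). The members' median was -0.41 and that of all genes -0.01.

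With the replicate block in the knockdown, LOXL1 and PLOD2 passed, while 3.42% of all genes did. With a block in both experiments, LOXL2, PLOD1, PLOD3 and P4HA1 passed in the knockdown as well. That fit called 968 of all genes. In the fit without a block, no member passed when any of the 6 siNeg and siCIN85 libraries was left out. LOXL1, PLOD2 and P4HA1 are named in the study's own DESeq2 gene lists as significantly lower in siCIN85 than in siNeg. Those lists were drawn from these libraries, so the direction of these genes is not independent evidence. The study also lists qPCR primers for LOXL1, but its text does not name LOXL1 among the genes changed in both of its cell lines. With 3 libraries a side, 0.1 is the smallest P an exact two-sided permutation test allows, and each non-overlapping member had that value. In the siCIN85 libraries the summed mesenchymal and osteoblast-type markers, which include COL1A1 and COL1A2, were at 1189 to 1601 CPM, below the 1719 to 2086 CPM of siNeg. From siNeg to siCIN85 the mean CPM went from 699 to 428 for COL1A1, from 643 to 465 for SPARC and from 49.8 to 20.7 for COL1A2. It went from 516 to 479 for VIM, from 14.7 to 12.8 for RUNX2 and, upward, from 0.253 to 0.868 for ALPL. The part of these markers in the members' values was not tested.

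**Figure D2:**
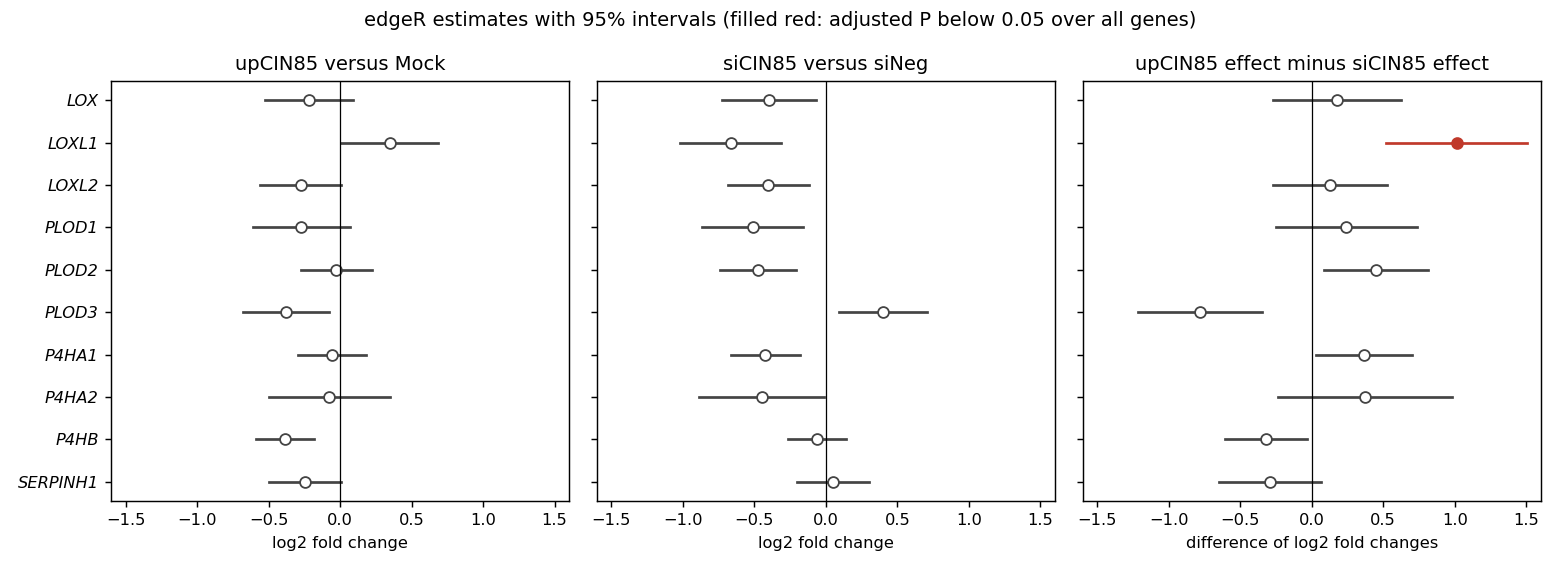
Log2 fold changes from edgeR (horizontal axis, log2 scale) with 95% intervals for the 10 genes in upCIN85 versus Mock, siCIN85 versus siNeg, and the difference between these effects. A filled red point marks an adjusted P below 0.05 over all tested genes, which LOXL1 alone had, in the difference (1.01).

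The effects of the plasmid and of the siRNAs were compared within a single model. For LOXL1 the upCIN85 effect exceeded the siCIN85 effect by 1.01 on the log2 scale (SE 0.23, adjusted P = 0.0478), and it was the 1 member called, with 0.973% of all genes called. This call was lost in 9 of 19 alternatives, each with 1 library left out (adjusted P up to 0.147, without upCIN85 replicate 3). In 20 random thinnings to the total of the shallowest library it passed in 11 (adjusted P 0.0377 to 0.0686). It held without Mock replicate 1, upCIN85 replicate 2 or siCIN85 replicate 3. PLOD3 had the opposite sign, -0.78 (SE 0.20, adjusted P = 0.0770), and passed with the replicate block (adjusted P = 0.0462), which called 2.93% of all genes. It passed as well in DESeq2 on 12 libraries (adjusted P = 0.0432), whose share of all genes is not given here. With a block in both experiments its adjusted P was 0.00752, in a fit that called 918 of all genes. PLOD2, P4HA1 and P4HB had differences of 0.45 (SE 0.17), 0.37 (SE 0.16) and -0.32 (SE 0.14), and adjusted P of 0.237, 0.301 and 0.279. For LOX, LOXL2 and PLOD1 the differences were 0.18 (95% interval -0.27 to 0.63), 0.13 (-0.27 to 0.53) and 0.24 (-0.25 to 0.73).

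The controls were set side by side as well, since Mock and siNeg cells both have endogenous CIN85. The siNeg and Mock cells differed in vector, drug selection and transfection, which cannot be told apart, and the Mock libraries also serve in the comparison with upCIN85. By edgeR 0 members passed, against 0.526% of all genes. DESeq2 also called 0, and its share of all genes is not given here. LOXL2 (0.36, SE 0.13) and P4HA1 (0.30, SE 0.11) had an unadjusted P below 0.05 by edgeR, against 12.4% of all genes. P4HA1 and PLOD1 were higher in every siNeg library than in every Mock library (9.48% of all genes), and LOXL1 and PLOD2 were lower (9.94%). As to the order of the 4 group means, LOXL1 ran upCIN85, Mock, siNeg, siCIN85 from the highest down, and its neighbors upCIN85 and Mock overlapped. LOX and PLOD2 shared the order Mock, upCIN85, siNeg, siCIN85, in which siNeg and siCIN85 were the only neighbors without overlap. P4HA1 and P4HA2 shared the order siNeg, Mock, upCIN85, siCIN85, with siNeg and Mock apart for P4HA1 and all neighbors overlapping for P4HA2.

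Some member loci overlap other genes, and the labels do not state whether reads were counted by strand. LOXL1-AS1, an antisense RNA over the first part of LOXL1, had means of 78.1, 83.0, 65.4 and 50.5 CPM in Mock, upCIN85, siNeg and siCIN85. The upCIN85 difference was 0.09 (adjusted P = 0.848) and the siCIN85 difference -0.38 (adjusted P = 0.279), the same signs as for LOXL1. ZNHIT1 overlaps the start of PLOD3 on the other strand by 753 bases. The upCIN85 difference of ZNHIT1 was -0.32 (SE 0.16, adjusted P = 0.369) and its siCIN85 difference 0.41 (SE 0.16, adjusted P = 0.231), against -0.38 and 0.40 for PLOD3. Neither overlap covers the 3′ end of the member gene, where the kit reads, and the overlapping genes' part in the members' counts was not tested. SRFBP1 overlaps LOX over 12376 bases, including the 3′ end of LOX, so without strand their reads could be shared. SRFBP1 differed by -0.03 (SE 0.17) in upCIN85 and by 0.05 (SE 0.18) in siCIN85. ENTPD4 overlaps LOXL2 on the same strand, and its differences were -0.19 (SE 0.13) and -0.25 (SE 0.13). PDLIM4 lies inside P4HA2 on the other strand over 15784 bases. Its own 3′ end falls within P4HA2, but it does not cover the 3′ end of P4HA2. PDLIM4 had means of 38.4, 43.5, 46.4 and 47.5 CPM in Mock, upCIN85, siNeg and siCIN85, and its part in the counts of P4HA2 was not tested.

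The genes around the 10 enzymes were read from a wider list of 42 collagen maturation genes, of which 34 were tested. In upCIN85 minus Mock 1 of them passed (1.23% of all genes did), CREB3L1, a transcription factor known to drive collagen genes, which was higher by 0.76 (SE 0.18, adjusted P = 0.0438). The highest and lowest values were those of LUM (1.33, SE 0.48) and TLL1 (-0.99, SE 0.31), a collagen-binding proteoglycan and a procollagen protease, which did not pass. With the replicate block in the knockdown, 4 of the 34 passed in upCIN85, against 4.35% of all genes, and 3 in siCIN85, against 3.42%. TLL1 was among them in each (adjusted P = 0.00288 and 0.00133 by edgeR). The block holds no term for the Mock and upCIN85 libraries. In siCIN85 minus siNeg 0 passed by edgeR (1.04% of all genes) and 0 by DESeq2 (2.87% of the 10351 genes given an adjusted P). At an unadjusted P below 0.05 there were 7 lower, against 8.15% of all genes, and 26 of 34 were below 0, against 50.8%. LOXL3 (0.63, SE 0.30) and LUM (-1.47, SE 0.62) marked the ends of that range. The list's medians were -0.08 and -0.18. The remaining lysyl oxidase, LOXL4, had differences of 1.05 (SE 0.32, adjusted P = 0.111, and 0.0495 with the knockdown block) and -0.92 (SE 0.44, adjusted P = 0.325). PPIB, a prolyl isomerase that works with the prolyl 3-hydroxylase complex, had -0.34 (SE 0.14, adjusted P = 0.257) and 0.14 (SE 0.14, adjusted P = 0.680), the same signs as SERPINH1.

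The substrates, 8 tested fibrillar collagen genes, had wider differences than the enzymes, with medians of 0.32 in upCIN85 and -0.81 in siCIN85. COL1A2 was higher in upCIN85 by 1.35 (SE 0.31, adjusted P = 0.0439 by edgeR). Its libraries overlapped with Mock, at 62.9 to 212 against 41.9 to 84.8 CPM, and the call was lost in DESeq2 (adjusted P = 0.0600). COL3A1 fell in siCIN85, with a difference of -1.69 (SE 0.29, adjusted P = 0.0130). In upCIN85 the COL3A1 difference was 0.88 (SE 0.26, adjusted P = 0.101 by edgeR), and its libraries overlapped with Mock. COL1A1, COL1A2 and COL3A1 passed the test of the difference between the effects, as did 0.973% of all genes. Their values were 1.27, 2.61 and 2.57, against 1.01 for LOXL1. With the replicate block, 4 fibrillar collagen genes passed in siCIN85 (3.42% of all genes did), COL1A1 (-0.71 without the block) and COL5A1 (-0.91) among them, with adjusted P of 0.0353 and 0.00372. Of the 20 hypoxia-inducible genes tested 0 passed by edgeR in either comparison. At an unadjusted P below 0.05, 5 were higher and 1 was lower in upCIN85, against 14.5% of all genes in either direction, and 0 passed that limit in siCIN85, against 15.7%. The fit with the block called 4 in upCIN85 (4.35% of all genes) and 0 in siCIN85 (3.42%). DESeq2 called 2 (2.54% of all genes) and 0 (2.87% of the 10351 genes given an adjusted P). The medians of these hypoxia-inducible genes were 0.11 and -0.04.

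**Figure D3:**
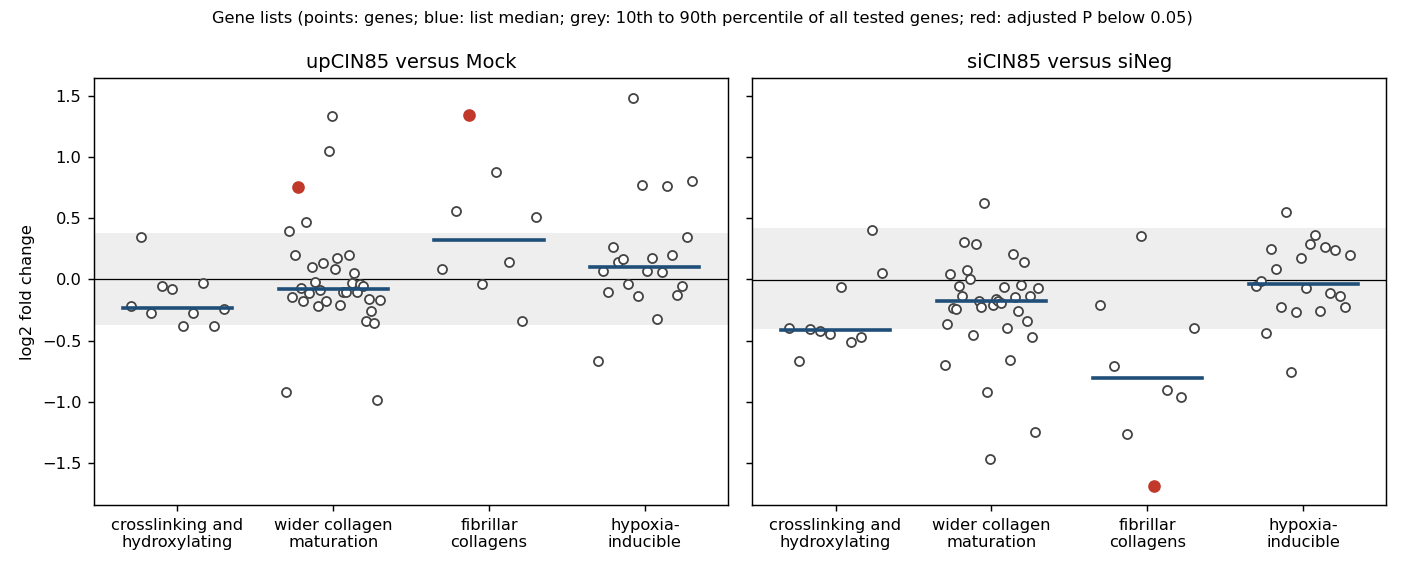
Log2 fold changes (vertical axis, log2 scale) of the tested genes of 4 lists in upCIN85 versus Mock and siCIN85 versus siNeg. Points are genes, blue lines are list medians, the grey band runs from the 10th to the 90th percentile of all tested genes, and red points passed an adjusted P of 0.05. The medians of the 10 enzymes were -0.23 and -0.41, and the points of the fibrillar collagens reach from -1.69 to 1.35.

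As a description, the genes most like a member were taken by Pearson's r of log2 CPM over the 12 libraries. For LOXL1, which had the lowest P-value in the knockdown, these were ACSL3 (r = 0.980), CXXC5 (r = 0.968) and TWSG1 (r = 0.966). For P4HB, which had the lowest P-value in upCIN85, they were CHST12 (r = 0.966), INPPL1 (r = 0.938) and LIMD2 (r = 0.937). These points share the 4 groups and their depths.

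How near the members came to the threshold is shown by the plot of adjusted P under each setting. The adjusted P of LOXL1 in the knockdown ran from 3.26e-06, without a filter on low counts, to 0.281, without siCIN85 replicate 1, while its log2 difference stayed between -0.80 and -0.56. That of P4HB in upCIN85 ran from 0.00864, with a block in both experiments, to 0.232, without upCIN85 replicate 3, with differences between -0.45 and -0.34.

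**Figure D4:**
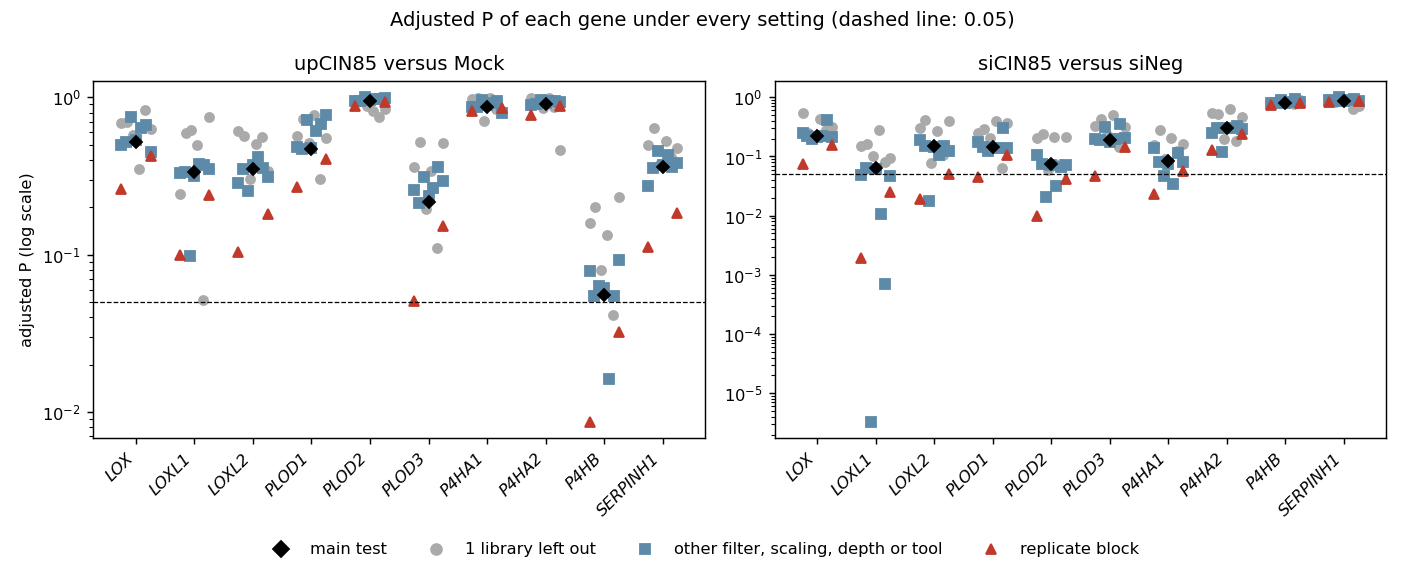
Adjusted P (vertical axis, log scale) of each gene in upCIN85 versus Mock and siCIN85 versus siNeg under every setting, with a dashed line at 0.05. Black diamonds are the edgeR fit of all 12 libraries, grey circles leave out 1 library, blue squares change the filter, scaling, depth or tool, and red triangles add a replicate block. No grey circle of the knockdown lies below the line, and those of P4HB in upCIN85 lie on both sides of it.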

How the data were processed

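RNA of 12 HOS libraries was made into 3′ tag libraries (QuantSeq 3′ FWD with a UMI module) and read as single-end reads. The deposited values are raw gene counts that the authors obtained with featureCounts. The submitters' processing notes name FastQC, cutadapt 4.3, STAR 2.7.3a, Picard 2.25.6, MultiQC 1.10.1, Subread 2.0 and GRCh38. The annotation release, the strand setting and the collapsing of UMIs are not given in the sources used here, and all of them can shift counts of overlapping genes. Symbols were taken from GENCODE release 29, which matched all but 95 of 25141 identifiers.

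Counts were fitted with edgeR 4.0.16 (R 4.3.3) over all 12 libraries with 1 mean per group, TMM scaling and the filterByExpr filter (count minimum 10, total 15). Contrasts were tested by the quasi-likelihood F test with Benjamini-Hochberg adjustment over 12542 genes and a threshold of 0.05. The SE is the absolute log2 fold change divided by the square root of F. CPM are the deposited counts after TMM scaling to a common library total. DESeq2 1.42.0 served as an alternative. The scripts were tested on simulated data. Deviations of same-numbered libraries from their group means correlated at 0.353, 0.269 and 0.446 in the knockdown, against -0.287 to -0.0589 for unlike numbers. For Mock and upCIN85 they correlated at 0.326, 0.227 and 0.0989, against -0.298 to 0.0303. Each same-numbered value was the highest for its libraries in both experiments. The labels give only shared numbers. The main test held no pairs. A block in the knockdown alone and a block in both experiments were alternatives, and the labels do not favor either. No libraries were duplicates.

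The members, lists and rules for named genes were chosen with earlier results of these data known: the 10 members are named in full, genes of the wider lists where they passed or had the highest or lowest value, and the 3 genes most like the member with the lowest P. LOXL4, PPIB and the overlapping genes were chosen after their values were seen. Alternatives were another scaling, no or a stricter filter, 6 libraries at a time, blocks, DESeq2, thinning and leaving out each library.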

Additional observations from a re-analysis of the deposited data

Results flagged for a closer look

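LOXL1 was marked because its effects in the 2 experiments differed by a test of that difference: the upCIN85 effect minus the siCIN85 effect was 1.01 on the log2 scale (SE 0.23, adjusted P = 0.0478 by edgeR). The 2 effects were 0.35 (SE 0.16) and -0.67 (SE 0.17). The groups had 3 libraries each, too few for a test of single libraries that stand apart.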

How the results depend on the processing

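The replicate block in the knockdown took same-numbered libraries as pairs. It raised the members called from 0 to 2 in siCIN85 minus siNeg and from 0 to 1 in upCIN85 minus Mock. In the difference between the effects the count rose from 1 to 2. This block holds no term for Mock or upCIN85 libraries, so there it acts only through the spread estimate shared by all 12 libraries. It changed no call in siNeg minus Mock. A block in both experiments gave 6, 1 and 2 members, in fits that called 968, 1035 and 918 of all genes, against 131, 154 and 122 without a block. DESeq2 on 12 libraries gave 3, 1 and 2. It called 2.87% of 10351 genes with an adjusted P in the knockdown and 2.54% of 12540 in upCIN85. Its share for the difference is not given here. DESeq2 on 6 libraries gave 1 in the knockdown, as did edgeR on 6 libraries. Without a filter the counts were 4 in the knockdown and 2 in the difference, with 617 and 554 of all genes called, and the thinning to 3540641 counts gave 1 in the knockdown. The shares of all genes in the 6-library and thinned fits are not given here, so those counts of 1 are not set against a background. Since draws disagreed, thinning was repeated 20 times after the data were seen: LOXL1 passed in 11 draws in the difference and in 2 in the knockdown, and P4HB in 2 in upCIN85. Leaving out single libraries gave 0 to 1 members in upCIN85, 0 in the knockdown and 0 to 2 in the difference. Those fits called 25 to 260, 9 to 362 and 33 to 341 of all genes. The signs of small values turned. Without single libraries, PLOD2 ranged from -0.094 to 0.096 and P4HA2 from -0.39 to 0.097 in upCIN85, SERPINH1 from -0.11 to 0.14 in siCIN85, and PLOD3 from -0.11 to 0.082 and P4HB from -0.017 to 0.097 in siNeg minus Mock. PLOD3 there was also 0.012 with a stricter filter, 0.011 after thinning, 0.0075 with both blocks and 0.0031 in DESeq2 on 6 libraries. The cause of these shifts was not tested. Over the members' values, 589 alternatives kept sign and side of the threshold, 27 came to pass, 9 ceased to pass and 15 turned sign. The calls over all genes ranged from 25 to 1035 in upCIN85, from 9 to 968 in the knockdown and from 33 to 918 in the difference. Depth limits PLOD1 most, with 73 counts at the lowest.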
